A study of Rattus norvegicus with 12 samples.

Results

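The fast thick-filament genes of rat skeletal muscle were followed through 4 ways of preparing mitochondria: the fast myosin heavy chains Myh1, Myh2 and Myh4, the fast light chains Myl1 and Mylpf, and the myosin-binding proteins Mybpc1 and Mybpc2. The genes were picked by name, 7 in all, from a table of 30560 genes. Of these 7 genes, 6 were matched by name and 6 passed the filter on low counts, while Myh1 was not analysed here. Mybpc1 encodes the slow-type myosin-binding protein C, which fast fibres also contain, so the word fast fits it less well than the other members.

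The thick filament of the sarcomere is built from myosin. Each motor has a pair of heavy chains, which carry the ATPase head and the rod, and each head binds an essential and a regulatory light chain, while myosin-binding protein C ties neighbouring heads to the filament backbone. Adult fibres are typed by their heavy chain, with Myh7 in slow fibres and Myh2, Myh1 and Myh4 in progressively faster ones, and Myh4 is the heavy chain of the fastest fibres of rodent limb muscle. All of these proteins are made in the cytosol and act in the myofibril, and none is a known mitochondrial protein.

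The libraries held RNA from 1 male wild-type Wistar Kyoto rat aged 14 weeks, whose hindlimb muscle, named as gastrocnemius in the series design, was homogenised and pooled. The mitoplast group was made from immunoprecipitated mitochondria by taking off the outer membrane, and received RNase A. The IP plus proteinase K group held mitochondria captured on magnetic beads, treated with RNase A and with proteinase K, a protease that digests exposed protein. The IP group held bead-captured mitochondria treated with RNase A, and the crude group held mitochondria collected by differential centrifugation and also treated with RNase A, an enzyme that cuts accessible RNA. Each group had 3 libraries. For the crude group the title and the design were followed, because its source label names immunoprecipitation. Since every library came from aliquots of 1 homogenate, the errors and p-values below describe how much those aliquots varied, which may be technical, and not how animals vary.

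Total counts were 3325430 to 4563254 in the 9 libraries of the mitoplast, IP plus proteinase K and IP groups, called bead-derived below, and 6583452 to 7123045 in the 3 crude libraries. Crude libraries were made from 6.3 ng of RNA and the others from 40 ng, so preparation and input amount cannot be told apart in any comparison with the crude group. The 13 mitochondrially encoded mRNAs took 1.51% to 1.89% of the counts in mitoplast libraries, 1.49% to 2.07% in IP plus proteinase K libraries, 2.56% to 5.59% in IP libraries and 22.9% to 28.8% in crude libraries. The median olfactory receptor gene, of a family that muscle does not normally transcribe, had 37 to 49 counts in bead-derived libraries and 30 to 34 in crude libraries. The median nuclear gene had 70 to 97 counts in bead-derived libraries and 63 to 77 in crude libraries. Low counts of the myosin genes were therefore read on top of this level. Values below are CPM, read counts put on a common library depth, here the TMM effective library size, and a log2 fold change is relative to the bulk of genes, whose median was 0.01 or less in size against the crude group.

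The fast heavy chains Myh2 and Myh4 sit close to each other on chromosome 10, in the RefSeq GRCr8 order Myh3, Myh2, Myh1, Myh4, Myh8, Myh13. The 250 bases before the annotated start of Myh2 and Myh4, taken from RefSeq GRCr8, are shown because they are the members of this cluster that were measured, with Myh1 between them not analysed here. Capitals mark the longest run that both windows share, 21 bases, beginning 171 bases before the Myh2 start and 178 bases before the Myh4 start.
Myh2 upstream window, chr10:52355489-52355738, + strand: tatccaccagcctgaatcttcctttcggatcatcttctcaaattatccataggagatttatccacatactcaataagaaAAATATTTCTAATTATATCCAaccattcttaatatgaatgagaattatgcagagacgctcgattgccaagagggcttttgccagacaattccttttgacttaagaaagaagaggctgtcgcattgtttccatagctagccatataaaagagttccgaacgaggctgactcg
Myh4 upstream window, chr10:52421898-52422147, + strand: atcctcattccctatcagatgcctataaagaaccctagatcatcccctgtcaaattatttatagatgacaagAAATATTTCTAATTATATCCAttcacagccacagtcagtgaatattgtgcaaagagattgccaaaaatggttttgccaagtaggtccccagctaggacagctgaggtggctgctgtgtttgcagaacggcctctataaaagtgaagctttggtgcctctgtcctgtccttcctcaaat
The shared run stood in 4 of the 33469 windows of the same length in the RefSeq table. These were the windows of Myh2 and Myh4 and those of an uncharacterised long noncoding RNA that begins on the opposite strand beside Myh4. The letters TATAAA, searched on both strands, were present in 4 of 7 windows of the 6 measured genes and in 12.9% of all windows, and CANNTG, the E-box bound by myogenic basic helix-loop-helix factors, in 6 of 7 and in 65.5% of all windows. The MEF2 consensus was matched in 2 of 7 windows and in 2.96% of all, and the CArG box in 1 of 7 and in 1.5% of all. Mylpf is listed there as Myl11. These matches describe letters only, and RNA from isolated mitochondria does not show whether a factor was bound.

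All 6 measured genes fell in mitoplast, IP plus proteinase K and IP libraries against crude libraries, relative to the bulk of genes, whereas 4, 5 and 4 of them were higher when counts were scaled to mitochondrial mRNA instead. That scaling called 26456, 26457 and 26435 of the 26483 tested genes higher in the same order. All 6 members stayed below the median of all genes on it, but a change of scaling keeps distances between genes nearly as they are by construction. On the TMM scale the light chains had the largest fold changes, the heavy chains smaller ones and the myosin-binding proteins the smallest. In bead-derived libraries Myl1 had 62 to 111 counts, Mylpf 51 to 93 and Myh2 367 to 478. The median nuclear gene had 70 to 97 counts there. The part of this level in the order of the fold changes was not tested. Across all genes, 4.54% of the 26483 tested were called lower in mitoplast, 5.04% in IP plus proteinase K and 5.09% in IP libraries against crude libraries. The ranges of all 6 genes were separate from those of the crude libraries, as they were, in the lower direction, for 10.7%, 11.3% and 10.8% of all genes in the same order. The median log2 fold change of the 6 genes was -2.39 in mitoplast, -2.60 in IP plus proteinase K and -2.38 in IP libraries, against 0.00, 0.00 and 0.01 for all genes. The 3 comparisons share their crude libraries and so are not independent of each other. In RNA from bulk preparations, fewer fibre fragments and less RNA per fragment cannot be told apart.

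**Figure D1:**
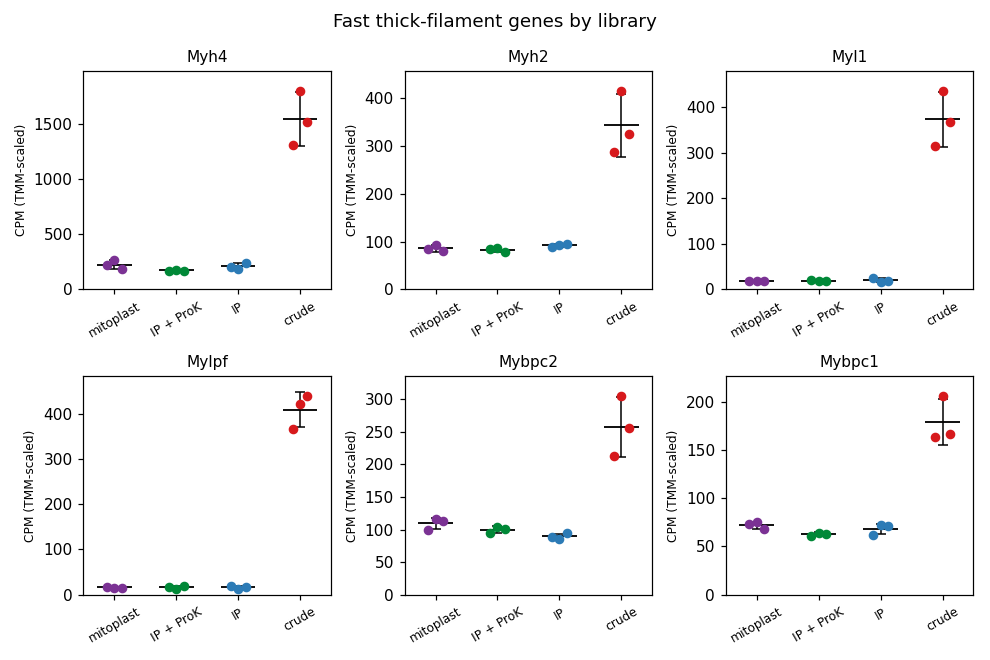
Each panel plots 1 gene, with CPM scaled to TMM effective library sizes on the vertical axis and the 4 groups along the horizontal axis; points are libraries, and the line and bar are the mean and SD of 3 libraries. In each panel the 3 crude libraries lie above the 9 bead-derived libraries, on this scale and not on that of mitochondrial mRNA.

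Myh4, the heavy chain of the fastest fibres (ENSRNOG00000049695), had 218, 267 and 185 CPM in mitoplast libraries, 170, 178 and 171 CPM in IP plus proteinase K libraries and 202, 186 and 243 CPM in IP libraries, against 1312, 1804 and 1519 CPM in crude libraries. The highest bead-derived library stood far below the lowest crude library, and mitoplast library 2 was the highest of the bead-derived set. The log2 fold change against crude was -2.79 ± 0.104 (SE) in mitoplast, -3.16 ± 0.106 in IP plus proteinase K and -2.87 ± 0.105 in IP libraries, or 6.91-fold, 8.94-fold and 7.33-fold lower. The adjusted p of the IP comparison was 9.23e-30 (edgeR quasi-likelihood test, Benjamini-Hochberg). The raw counts were 747 to 1359 in bead-derived libraries and 5420 to 6739 in crude libraries.

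Myh2, the heavy chain of fast oxidative fibres (ENSRNOG00000065740), had 84.2, 93.9 and 80.4 CPM in mitoplast libraries, 84.0, 87.0 and 78.8 CPM in IP plus proteinase K libraries and 89.1, 93.1 and 95.3 CPM in IP libraries, against 288, 416 and 326 CPM in crude libraries. The groups did not overlap, and the 3 bead-derived groups lay within 78.8 to 95.3 CPM. Myh2 was 3.97-fold lower in mitoplast, 4.11-fold lower in IP plus proteinase K and 3.7-fold lower in IP libraries than in crude libraries. Its log2 fold change was -1.99 ± 0.0891 in mitoplast, -2.04 ± 0.0893 in IP plus proteinase K and -1.89 ± 0.0895 in IP libraries. The adjusted p was 1.52e-24 for IP against crude (edgeR quasi-likelihood test, Benjamini-Hochberg).

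Mylpf, the phosphorylatable regulatory light chain of fast fibres (ENSRNOG00000017645), showed the largest change of the 6 genes. It had 17.6, 14.9 and 15.5 CPM in mitoplast libraries, 16.6, 11.8 and 19.4 CPM in IP plus proteinase K libraries and 18.7, 12.7 and 16.5 CPM in IP libraries, against 366, 421 and 439 CPM in crude libraries. The spread among the 9 bead-derived libraries was small beside the gap to the crude group. The log2 fold change was -4.67 ± 0.107 in mitoplast, -4.67 ± 0.107 in IP plus proteinase K and -4.67 ± 0.109 in IP libraries, and the adjusted p for IP against crude was 2.68e-38 (edgeR quasi-likelihood test, Benjamini-Hochberg). Ordered from the lowest fold change of all 26483 genes, Mylpf stood at position 25 in mitoplast, 25 in IP plus proteinase K and 12 in IP libraries against crude libraries.

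Myl1, the essential light chain of fast fibres (ENSRNOG00000013262), had 19.2, 18.5 and 18.2 CPM in mitoplast libraries, 19.8, 19.3 and 17.7 CPM in IP plus proteinase K libraries and 24.7, 15.4 and 19.5 CPM in IP libraries, against 315, 436 and 368 CPM in crude libraries. Again no bead-derived library came near a crude library. Myl1 was 20.0-fold lower in mitoplast, 19.6-fold lower in IP plus proteinase K and 18.6-fold lower in IP libraries, with log2 fold changes of -4.32 ± 0.109, -4.29 ± 0.108 and -4.22 ± 0.11 in the same order. The adjusted p for IP against crude was 1.36e-36 (edgeR quasi-likelihood test, Benjamini-Hochberg). In raw counts the bead-derived libraries held 62 to 111 reads of Myl1 and 51 to 93 of Mylpf, against 1313 to 1628 and 1568 to 1631 in the crude libraries.

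Mybpc2, the fast-type myosin-binding protein C (ENSRNOG00000019627), had 100, 116 and 113 CPM in mitoplast libraries, 94.0, 104 and 101 CPM in IP plus proteinase K libraries and 88.6, 85.9 and 94.1 CPM in IP libraries, against 213, 305 and 255 CPM in crude libraries. Mybpc1, the slow-type protein (ENSRNOG00000056493), had 73.1, 75.0 and 67.7 CPM in mitoplast libraries, 61.2, 64.4 and 63.2 CPM in IP plus proteinase K libraries and 62.3, 71.9 and 71.0 CPM in IP libraries, against 163, 206 and 167 CPM in crude libraries. Both genes kept the groups apart, by a narrower margin than the light chains. Mybpc2 had log2 fold changes of -1.23 ± 0.0861 in mitoplast, -1.37 ± 0.0868 in IP plus proteinase K and -1.52 ± 0.0891 in IP libraries. Those of Mybpc1 were -1.31 ± 0.0838, -1.50 ± 0.085 and -1.38 ± 0.0857 in the same order. The adjusted p for IP against crude was 1.46e-20 for Mybpc2 and 1.61e-19 for Mybpc1 (edgeR quasi-likelihood test, Benjamini-Hochberg). When counts were scaled to total library size, the mitoplast log2 fold changes of these genes were -0.14 (adjusted p = 0.251, edgeR) and -0.23 (adjusted p = 0.0706, edgeR), and the calls were lost. Those 2 values are the highest adjusted p of 13 alternatives, with 3.33e-32 the lowest for Mybpc2 and 2.31e-39 the lowest for Mybpc1 (edgeR or DESeq2).

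**Figure D2:**
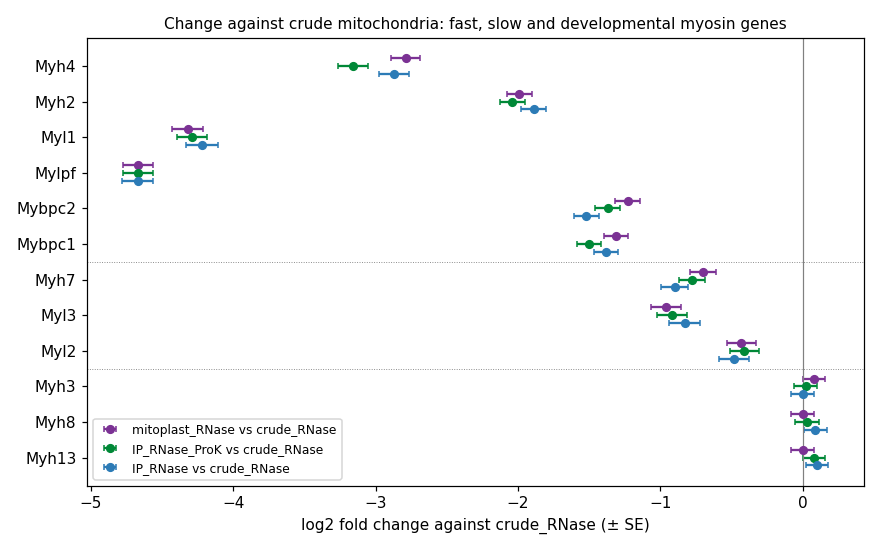
Horizontal axis, log2 fold change against the crude group with its SE on the TMM scale; rows are the 6 fast thick-filament genes, then 3 slow genes and 3 developmental or extraocular heavy chains, and colours are the 3 bead-derived groups. Mylpf lies at -4.67 in all 3 groups, Mybpc1 and Mybpc2 between -1.52 and -1.23, and Myh3, Myh8 and Myh13 near 0. Scaled to mitochondrial mRNA, the heavy chains and myosin-binding proteins lie above 0, as does the median of all genes.

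TMM, library size and mitochondrial mRNA give different zero points. The median gene shifted, against the crude group, by 1.08 in mitoplast, 1.09 in IP plus proteinase K and 1.03 in IP libraries under library size scaling. It shifted by -0.11, -0.12 and -0.21 under olfactory receptor scaling, and by 4.93, 4.95 and 3.81 under mitochondrial mRNA scaling, in the same order. A change of scaling moves all genes of a library together, so that these shifts apply to the 6 genes as to any other, and the distances between genes stay nearly as they are by construction.

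The balance of counts within the thick filament was compared next, which needs no scaling between libraries. Myh4 made up 72.1%, 74.0% and 69.7% of the summed Myh2 and Myh4 counts in mitoplast libraries, 66.9%, 67.1% and 68.5% in IP plus proteinase K libraries and 69.4%, 66.6% and 71.9% in IP libraries, against 82.0%, 81.3% and 82.3% in crude libraries. No bead-derived library reached the crude range. The means were 71.9% ± 2.15 in mitoplast, 67.5% ± 0.872 in IP plus proteinase K and 69.3% ± 2.62 in IP libraries, against 81.9% ± 0.549 in crude libraries (SD, n = 3 each). The difference from crude was -9.94 percentage points in mitoplast, -14.4 in IP plus proteinase K and -12.6 in IP libraries, each with a two-sided exact permutation p of 0.1, which is the smallest p that 3 libraries against 3 allow (adjusted p = 0.1 over 6 tests). In bead-derived libraries Myh2 had 367 to 478 counts, where the neighbouring genes Myh3, Myh8 and Myh13 had 376 to 627 and were not called against crude libraries on the TMM scale. Reads at such a level would take a larger part of the bead-derived counts than of the crude counts, and their part in this share and in the ratio of light to heavy chains was not tested.

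The light chains gave 12.2, 9.25 and 12.7 counts for every 100 heavy-chain counts in mitoplast libraries, 14.4, 11.7 and 14.9 in IP plus proteinase K libraries and 14.9, 10.1 and 10.6 in IP libraries, against 42.5, 38.6 and 43.8 in crude libraries. The ratio takes Myl1 and Mylpf over Myh2 and Myh4, in counts not divided by gene length. On the log2 scale it averaged -3.15 ± 0.249 in mitoplast, -2.88 ± 0.185 in IP plus proteinase K and -3.10 ± 0.305 in IP libraries, against -1.27 ± 0.0953 in crude libraries (SD, n = 3 each). It differed from crude by -1.88 in mitoplast, -1.61 in IP plus proteinase K and -1.83 in IP libraries, with a two-sided exact permutation p of 0.1 in each comparison, the smallest possible. The lowest crude library, at -1.37, was still above the highest bead-derived library, at -2.75.

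**Figure D3:**
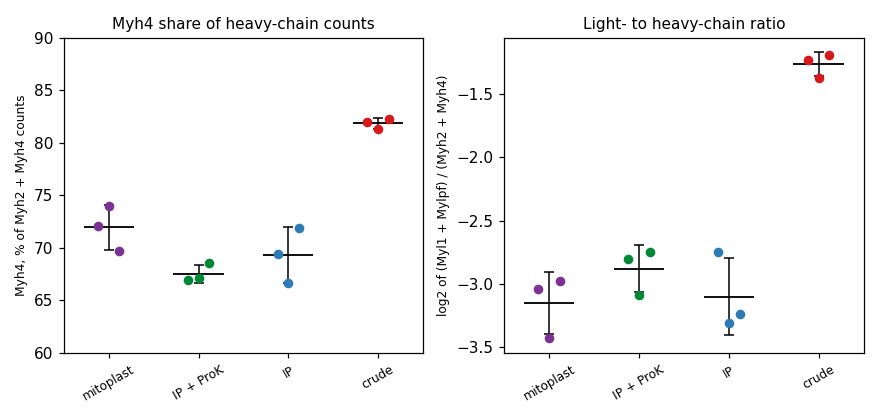
Left, Myh4 as a percentage of Myh2 and Myh4 counts, on an axis that begins at 60%; right, log2 ratio of light-chain to heavy-chain counts; points are libraries, and the line and bar are the mean and SD of 3 libraries. In both panels the crude libraries lie apart, at 81.3% to 82.3% and at -1.37 to -1.19.

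Set against the transcripts that mitochondria make themselves, the order of the groups was another. Myh2 and Myh4 together had 19.3, 23.7 and 21.4 counts per 1000 mitochondrial mRNA counts in mitoplast libraries, 20.9, 18.9 and 14.7 in IP plus proteinase K libraries and 9.02, 13.2 and 6.77 in IP libraries, against 4.73, 4.04 and 3.86 in crude libraries. On this scale every bead-derived library was above every crude library. Myl1 and Mylpf together had 2.35, 2.19 and 2.72 counts per 1000 in mitoplast libraries, 3.0, 2.21 and 2.18 in IP plus proteinase K libraries and 1.34, 1.33 and 0.719 in IP libraries, against 2.01, 1.56 and 1.69 in crude libraries. The IP libraries were thus the lowest for light chains and the crude libraries the lowest for heavy chains. Mybpc1 averaged 5.02 ± 0.403 in mitoplast, 4.44 ± 0.675 in IP plus proteinase K and 2.25 ± 1.03 in IP libraries, against 0.401 ± 0.0698 in crude libraries (SD, n = 3 each). The mitochondrial mRNA share itself differed between the groups by the amounts given above. Under mitochondrial mRNA scaling the median log2 fold change of all genes against crude was 4.93 in mitoplast, 4.95 in IP plus proteinase K and 3.81 in IP libraries. That of the measured members was lower, at 2.57, 2.39 and 1.46 in the same order. Every measured member stayed below the median gene, a position that scaling leaves nearly unchanged by construction. The higher heavy-chain ratios are thus not particular to these genes. The part of the mitochondrial mRNA share in these ratios was not tested.

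**Figure D4:**
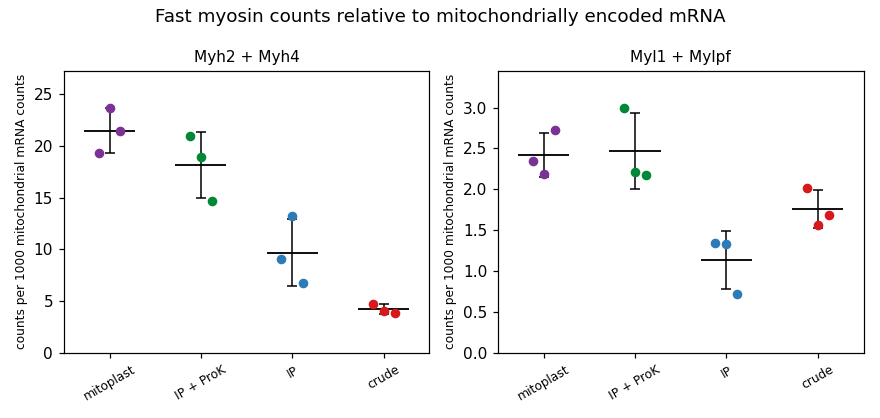
Counts per 1000 mitochondrially encoded mRNA counts for the heavy chains Myh2 and Myh4 (left) and the light chains Myl1 and Mylpf (right), with axes that begin at 0; points are libraries, and the line and bar are the mean and SD of 3 libraries. Heavy chains run from 3.86 to 4.73 in crude and from 6.77 to 23.7 in bead-derived libraries, while for light chains the IP libraries, at 0.719 to 1.34, are the lowest.

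Between the bead-derived groups, none of the 6 genes passed the test (edgeR quasi-likelihood), where 0.14% of all genes were called in IP plus proteinase K against IP libraries, 0.155% in mitoplast against IP libraries and 0% in mitoplast against IP plus proteinase K libraries. At an unadjusted p below 0.05 the counts were 1, 1 and 2 of 6 genes in the same order, against 8.86%, 8.93% and 2.8% of all genes, and DESeq2 called 0 in each. The 3 comparisons share libraries with each other. Scaled to mitochondrial mRNA, all 6 genes were higher in IP plus proteinase K and in mitoplast libraries than in IP libraries. So were 24889 and 24728 of the 26483 tested genes, in the same order.

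Myh4 differed most between mitoplast and IP plus proteinase K libraries. Its log2 fold change was -0.29 ± 0.104 in IP plus proteinase K against IP libraries (unadjusted p = 0.00841, adjusted p = 0.386, edgeR) and 0.37 ± 0.104 in mitoplast against IP plus proteinase K libraries (unadjusted p = 0.000761, adjusted p = 1, edgeR), with separate ranges in both. Fitted on only the 2 groups compared, the adjusted p was 0.0144 and 2.6e-05, so these calls depended on which libraries entered the fit. Over 13 alternatives the adjusted p of edgeR or DESeq2 ran from 0.00975 to 0.919 for the difference from IP and from 2.6e-05 to 1 for that between mitoplast and IP plus proteinase K libraries. The value of 0.00975 belonged to mitochondrial mRNA scaling, where Myh4 was higher in IP plus proteinase K than in IP libraries, at 0.88. The IP plus proteinase K group had an SD of 4.35 CPM for Myh4, against 41.3 in mitoplast, 29.6 in IP and 247 CPM in crude libraries. Without IP library 3 the difference of IP plus proteinase K from IP was -0.17, and without mitoplast library 2 that of mitoplast from IP plus proteinase K was 0.22.

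Mybpc2 had a log2 fold change of 0.29 ± 0.0928 in mitoplast against IP libraries, with separate ranges (unadjusted p = 0.00271, adjusted p = 0.327, edgeR), and its adjusted p was 0.0232 when only the 2 groups were fitted (0.0033 to 0.932 over 13 alternatives). Mybpc1 had a log2 fold change of 0.20 ± 0.0906 in mitoplast against IP plus proteinase K libraries, also with separate ranges (adjusted p = 1, edgeR). Separate ranges in either direction were seen for 9.47% of all genes in that comparison, 16.0% in mitoplast against IP and 16.6% in IP plus proteinase K against IP. Myh2 also had separate ranges, at 78.8 to 87 CPM in IP plus proteinase K against 89.1 to 95.3 CPM in IP libraries. It was not called there on the TMM scale. In IP plus proteinase K against IP libraries Mylpf had 0.00 ± 0.158 and Myl1 -0.07 ± 0.151, and in mitoplast against IP libraries Myl1 had -0.10 ± 0.153, as low as Myh2 with -0.10 ± 0.0963. With these SEs, small differences of the light chains were not detectable at this depth.

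Other genes of the thick filament had smaller fold changes than the members on the TMM scale. Of 6 slow and cardiac genes, 3 were lower in each of mitoplast, IP plus proteinase K and IP against crude libraries, with a median log2 fold change of -0.22, -0.23 and -0.31. They were Myh7, the slow heavy chain, with -0.70 ± 0.0912, -0.78 ± 0.0916 and -0.90 ± 0.0936; Myl3, an essential light chain of slow fibres, with -0.96 ± 0.105, -0.92 ± 0.104 and -0.83 ± 0.106; and Myl2, the slow regulatory light chain, with -0.43 ± 0.102, -0.41 ± 0.101 and -0.48 ± 0.105. The direction was set by the scaling: under library size scaling 0 of these 6 genes were lower and 5, 5 and 4 were higher, and under mitochondrial mRNA scaling all 6 were higher. So were 25236, 25235 and 25094 of all 26483 tested genes under library size scaling, in the same order. Under mitochondrial mRNA scaling 26456, 26457 and 26435 of all genes were higher. Olfactory receptor scaling made 5 of 6 lower in IP libraries. Myl2 was no longer called, and 2 of 6 genes were lower, without crude library 3 in mitoplast and in IP plus proteinase K libraries, and without IP plus proteinase K library 1 or 2 in IP plus proteinase K libraries. Myh7 averaged 121 ± 11.9 CPM in mitoplast, 115 ± 5.27 in IP plus proteinase K and 105 ± 14.9 in IP libraries, against 197 ± 35.1 CPM in crude libraries (SD, n = 3 each).

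On the TMM scale none of the 4 developmental and extraocular genes was called in any comparison with crude libraries by edgeR or DESeq2, and none had an unadjusted p below 0.05, whereas all 4 were higher under library size and mitochondrial mRNA scaling, which shift the median gene upward. Myh13, the extraocular heavy chain, had a log2 fold change of 0.10 ± 0.0795, Myh8, the perinatal heavy chain, 0.09 ± 0.0823 and Myl4, the embryonic and atrial light chain, -0.21 ± 0.138 in IP against crude libraries. Under olfactory receptor scaling Myl4 was called lower there, at -0.42 (adjusted p = 0.0372, edgeR), while Myh13 and Myh8 were at -0.11 and -0.12 and were not called. Over 13 alternatives the adjusted p of Myl4 ran from 2.28e-20 to 0.777 (edgeR or DESeq2). The lowest belonged to mitochondrial mRNA scaling, where Myl4 was higher, at 3.63. The raw counts of these cluster neighbours are set beside those of the members without a comparison between genes, since exon lengths were not used here. Myh3, the embryonic heavy chain, had 424 to 627 counts in bead-derived libraries and 364 to 470 in crude libraries, Myh8 376 to 504 and 321 to 372, and Myh13 414 to 609 and 354 to 470. Myh2 had 367 to 478 counts in bead-derived libraries and 1162 to 1553 in crude libraries. Among these heavy chains, only Myh2 and Myh4 had more reads in each crude library than in any bead-derived library.

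**Figure D5:**
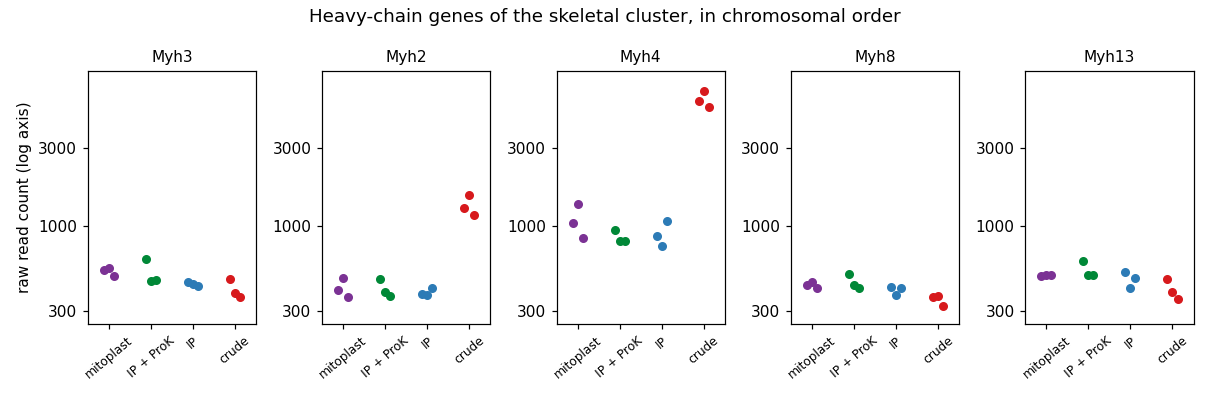
Raw read counts per library, on a logarithmic axis, of the 5 measured heavy-chain genes of the chromosome 10 cluster in their chromosomal order, by group. Myh2 and Myh4 stand higher in crude libraries, at 1162 to 1553 and 5420 to 6739 counts, while Myh3, Myh8 and Myh13 stay between 321 and 627 counts in all 12 libraries.

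Genes that assemble and regulate the thick filament were called lower in 4 of 7 cases in mitoplast, 3 of 7 in IP plus proteinase K and 3 of 7 in IP libraries, and 0 of 7 were lower under library size or mitochondrial mRNA scaling. Library size scaling made 7, 6 and 6 of the 7 higher in the same order, and mitochondrial mRNA scaling made all 7 higher in each group. Of all 26483 tested genes, those scalings called 25236, 25235 and 25094, and 26456, 26457 and 26435, higher in the same order. Under olfactory receptor scaling 4, 4 and 5 of 7 were lower. The fourth gene in mitoplast libraries was Smyd1, a methyltransferase of muscle, named here after its values were seen, at -0.28 (adjusted p = 0.0483, edgeR) and not called by DESeq2 (adjusted p = 0.146). The mitoplast count was 3 of 7 also without the filter, with only 2 groups, with the replicate block, and without crude library 2 or 3 or any 1 mitoplast library. Mylk2, the kinase that phosphorylates the regulatory light chain in skeletal muscle, had a log2 fold change of -0.69 ± 0.107 in mitoplast, -0.94 ± 0.109 in IP plus proteinase K and -0.81 ± 0.111 in IP libraries. The M-band protein Myom2 had -0.51 ± 0.0764, -0.57 ± 0.0766 and -0.52 ± 0.0774 in the same order. Its relative Myom1, at -0.30 ± 0.0847 in IP libraries, was called with adjusted p = 0.0178 (edgeR). That call was lost without IP library 1 (adjusted p = 0.07), IP library 2 (0.122), crude library 1 (0.0519) or crude library 2 (0.0899), and with only the 2 groups in the fit (0.0782).

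The list named fast thin filament, after the actin-based partner of these motors, held Acta1, Actn3, Tnnt3, Tnni2, Tnnc2, Tpm1 and Tpm2. Actn3 belongs to the Z-disc, and Acta1, Tpm1 and Tpm2 are not limited to fast fibres. On the TMM scale 7 of 7 genes fell in each bead-derived group. The median was -3.45 in mitoplast, -3.44 in IP plus proteinase K and -3.48 in IP libraries. Under mitochondrial mRNA scaling 1 gene was lower in each group and 6, 6 and 1 were higher. Library size scaling kept 7 of 7 genes lower. Acta1, skeletal actin, had a log2 fold change of -6.02 ± 0.121, -6.01 ± 0.121 and -6.01 ± 0.122, Tnnc2, fast troponin C, -4.20 ± 0.0993, -4.15 ± 0.0985 and -4.41 ± 0.104, and Tnni2, fast troponin I, -3.58 ± 0.0845, -3.75 ± 0.0858 and -3.69 ± 0.0873, in the same order of groups. Smooth-muscle and non-muscle myosin genes were lower in 4 of 8 cases in each group, and in 0 of 8 under library size or mitochondrial mRNA scaling. Library size scaling made 7, 7 and 6 of the 8 higher in the same order of groups, and mitochondrial mRNA scaling made all 8 higher in each. Of all 26483 tested genes, 25236, 25235 and 25094 were higher under library size scaling. Under mitochondrial mRNA scaling they were 26456, 26457 and 26435. In mitoplast libraries 2 of 8 were lower with only 2 groups in the fit, without mitoplast library 2 and without mitoplast library 3. On the TMM scale the genes lower in IP against crude libraries included Myl6, a light chain of those myosins, at -0.94 ± 0.114. They also included Myl12a, a regulatory light chain of those myosins, at -0.80 ± 0.0999, and Myh9, a non-muscle heavy chain, at -0.37 ± 0.0719.

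Among 16082 genes with a symbol and enough counts, those whose log2 CPM followed the mean of the 6 members most closely over the 12 libraries were Ahnak, Vim, Tpt1, Slc25a4 and Tpm1, with Pearson r of 0.997 to 0.998. Their log2 fold changes in IP against crude libraries were -1.56 ± 0.0732 for Ahnak, a large membrane scaffold protein, -3.14 ± 0.0936 for the intermediate filament gene Vim and -3.39 ± 0.0995 for Tpt1, a translationally controlled protein. They were -4.04 ± 0.105 for Slc25a4, the muscle ADP/ATP carrier of the inner mitochondrial membrane, and -3.48 ± 0.0857 for Tpm1, a tropomyosin. The libraries fall into 2 sets, bead-derived and crude, so these correlations mostly restate that gap.

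Markers of the cells that muscle holds were read beside these results. All 4 measured muscle fibre markers were lower in each bead-derived group, 3 of them also under library size scaling and 1 under mitochondrial mRNA scaling. Library size scaling made 1 marker higher in each group. Mitochondrial mRNA scaling made 3 higher in mitoplast, 3 in IP plus proteinase K and 2 in IP libraries. In mitoplast libraries DESeq2 called 3 of 4, leaving out Ryr1, the calcium release channel, named after its values were seen (log2 fold change -0.36, adjusted p = 0.00597 by edgeR and 0.226 by DESeq2), and edgeR called 3 of 4 with only 2 groups and without crude library 2 or mitoplast library 1 or 3. The summed level of the 4 markers was 455 to 502 CPM in mitoplast, 419 to 443 in IP plus proteinase K and 388 to 438 in IP libraries, against 2346 to 2989 CPM in crude libraries. A different gene made up most of this sum on each side. Acta1, also in the fast thin filament list, averaged 27.0, 27.4 and 27.1 CPM in the same order, against 1755 CPM in crude libraries. Ryr1 averaged 379, 338 and 319 CPM, against 486 CPM. The 4 fibroblast and matrix markers were also lower, under library size scaling too but in 0 of 4 cases under mitochondrial mRNA scaling, with sums of 239 to 244 CPM, 220 to 235 and 230 to 243 in the same order, against 1378 to 1480 CPM in crude libraries. Mitochondrial mRNA scaling made 4, 4 and 3 of these 4 markers higher, in the same order. Of the other marker lists, 1 of 4 endothelial and 2 of 4 macrophage genes were lower, and 0 of 3 satellite cell, 0 of 3 Schwann cell and 0 of 4 smooth muscle and pericyte genes, in each of the 3 comparisons (edgeR, and DESeq2 with the same counts); under olfactory receptor scaling 2 endothelial genes and 1 gene of each of the last 3 lists were lower in IP libraries. At an unadjusted p below 0.05, 1 smooth muscle and pericyte gene was past in mitoplast libraries and 1 satellite cell, 1 Schwann cell and 1 smooth muscle and pericyte gene in IP libraries, against 16.7% and 17.9% of all genes. Without crude library 3, 1 of 4 smooth muscle and pericyte genes was lower in IP libraries. Library size scaling made 3 of 4 endothelial genes higher in each comparison. It also made all macrophage, satellite cell, Schwann cell and smooth muscle and pericyte genes higher. Mitochondrial mRNA scaling made every gene of these lists higher. Of all 26483 tested genes, library size scaling called 25236, 25235 and 25094 higher in mitoplast, IP plus proteinase K and IP libraries. Mitochondrial mRNA scaling called 26456, 26457 and 26435 higher. No marker gene had a count of 0 in any library. The part of these lists in the fall of the fast thick-filament genes was not tested.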

How the data were processed

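RNA of 12 mitochondrial preparations from rat hindlimb muscle was sequenced from ribosomal RNA-depleted total RNA libraries. The authors deposited 1 table of raw counts, in whole reads for each Ensembl gene, as its header and values show. Per the submitters' processing notes, FastQC 0.74, cutadapt 4.6, STAR 2.7.11a and HTSeq were used with mRatBN7.2. Annotation release, strandedness of counting and handling of multi-mapping reads: not given in the sources used here, so reads of near-identical heavy chains and of antisense transcripts could be shared between genes.

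Genes were matched by name, columns by the library descriptions, and 0 columns belonged to other samples. edgeR 4.0.16 in R 4.3.3 was run on all 12 libraries as a single model of 4 groups, with TMM scaling and the quasi-likelihood F test. The filter filterByExpr with a minimum count of 10 left 26483 genes (86.7%), and p-values were adjusted by Benjamini-Hochberg with a threshold of 0.05. The common biological coefficient of variation was 0.0644. The SE is the absolute log2 fold change divided by the square root of F. Ratios of counts were compared by two-sided exact permutation tests with SciPy 1.17.1. The ratios had been planned with Myh1 among the heavy chains and were computed without it. Alternatives were DESeq2 1.42.0, scaling on library size, on 1117 olfactory receptor genes or on mitochondrial mRNA, no filter, only the 2 groups compared, a replicate block, and each library left out in turn. The steps were tested on simulated data. PCR copies are not independent molecules.

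The members, lists and tests were chosen with earlier results of these data known. All members were named, with up to 3 genes of each list with the smallest p in IP against crude libraries, and the 5 genes most correlated with the members' mean log2 CPM (prior count 2). Motifs and shared runs were searched in the 250 bases before RefSeq GRCr8 starts. RefSeq gave gene names, gene order, start sites and the upstream sequences. No libraries of a group had identical counts: chi-square per degree of freedom between them was 1.24 to 12.07. Whether low values reflect repeat sequencing of 1 library was not tested. Crude library 1 had 11.96 and 12.07 against crude libraries 2 and 3, which had 4.43 between them. IP library 3 had 5.04 and 7.31 against IP libraries 1 and 2, which had 2.02 between them.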

Additional observations from a re-analysis of the deposited data

How the results depend on the processing

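The counts of lower members against crude libraries (6 in each comparison) held under DESeq2, olfactory receptor scaling, no filter, only 2 groups and each library left out, and were 4, 6 and 6 under library size scaling in mitoplast, IP plus proteinase K and IP libraries. Under mitochondrial mRNA scaling they were 0 in mitoplast, 0 in IP plus proteinase K and 1 in IP libraries, with 4, 5 and 4 genes higher. Log2 fold changes there, in the same order, were 2.98, 2.95 and 1.98 for Myh2, 2.17, 1.83 and 0.94 for Myh4, 3.64, 3.47 and 2.48 for Mybpc1 and 3.75, 3.62 and 2.33 for Mybpc2. Myl1 was at 0.65 and 0.70 and Mylpf at 0.28 and 0.28 in mitoplast and IP plus proteinase K libraries. The median gene lay higher than these members under that scaling. It was at 4.93, 4.95 and 3.81 against crude libraries in mitoplast, IP plus proteinase K and IP libraries. Against IP, that scaling made 6 members higher in IP plus proteinase K, among them Myh2 (0.98), Myh4 (0.88), Myl1 (1.12) and Mybpc1 (0.99), and 6 in mitoplast libraries, among them Myh2 (1.00), Myl1 (1.07) and Mylpf (1.17). The median gene shifted there by 1.13 and 1.12.

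In IP against crude libraries, library size and mitochondrial mRNA scaling gave log2 fold changes of 0.14 and 2.98 for Myh7, 0.20 and 2.97 for Myl3, 0.54 and 3.34 for Myl2, 0.82 and 3.63 for Myl4, 0.23 and 3.06 for Mylk2, 0.51 and 3.33 for Myom2, 0.72 and 3.51 for Myom1, 0.08 and 2.84 for Myl6, 0.23 and 3.02 for Myl12a and 0.66 and 3.47 for Myh9. Mitochondrial mRNA scaling gave 0.12 for Tnni2. Olfactory receptor scaling gave -0.11 for Myh13, -0.12 for Myh8 and -0.42 for Myl4, which was then called (adjusted p = 0.0372, edgeR).

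Over all genes, calls in mitoplast, IP plus proteinase K and IP against crude libraries numbered 1467, 1719 and 1684. They were 25415, 25420 and 25283 under library size scaling (99.3% higher in each) and 26465, 26470 and 26449 under mitochondrial mRNA scaling. Olfactory receptor scaling gave 4533 in IP libraries, with 1.28% higher against 19.9% under TMM, and 2.93% against 18% in mitoplast and 3.83% against 22.4% in IP plus proteinase K libraries. DESeq2 gave 1135 in IP plus proteinase K libraries. For IP plus proteinase K against IP, 37 calls became 23 under library size scaling, 24890 under mitochondrial mRNA scaling, 143 with only 2 groups (1 member lower) and 24 to 35 with a library left out (24 without IP library 1 or IP plus proteinase K library 1). For mitoplast against IP, 41 became 24728, 115 (1 member higher) and 25 to 42 in the last 3 settings (27 without IP library 1, 25 without mitoplast library 3). For mitoplast against IP plus proteinase K, 0 became 1, 11 (1 member higher) and 0 to 1 (1 without mitoplast library 3). With a library left out, Myl1 ranged from -0.22 to 0.12 in IP plus proteinase K and from -0.24 to 0.09 in mitoplast against IP, above 0 without IP library 1, and Myh4 from -0.06 to 0.20 in mitoplast against IP, below 0 without mitoplast library 2. The cause was not tested.

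Same-numbered libraries of different groups had correlations of -0.102 to 0.066 over all tested genes, once group means were taken out. Differently numbered libraries were not compared, so these values do not show whether the replicate numbers pair the libraries. With a replicate block, 1411 genes were called in mitoplast, 1676 in IP plus proteinase K and 1638 in IP against crude libraries, with 6 members lower in each, and 33, 41 and 0 among the bead-derived groups with 0 members. Light chains had 51 to 111 counts per bead-derived library, which limits their precision there. Ratios of 3 libraries against 3 cannot pass a threshold of 0.05.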
